A study of Rattus norvegicus with 18 samples.

Results

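The genes described here encode the β-catenin destruction complex and the Dishevelled proteins: Axin1, Axin2, Apc, Apc2, Gsk3b, Csnk1a1, Csnk1e, Dvl1, Dvl2 and Dvl3. They were chosen by symbol, and 9 of the 10 symbols were found among the 13188 genes of the expression table. Axin1 was not analysed here. RNA-seq was measured in 18 libraries of the rat fibroblast line HO15.19, a Rat1 derivative without functional Myc (myc-/-), in 6 groups of 3 libraries. All cells were grown in 10% serum, and the MYC-expressing cells carried human MYC from a virally introduced, stably expressed construct, so the level of MYC was not under its own promoter. Groups labelled siCtrl, siAHR-2 or siAHR-5 were transfected with 40 nM of a control siRNA or of 1 of 2 siRNAs against Ahr, the aryl hydrocarbon receptor, and collected 48 h later.

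The libraries form a set of 6 and a set of 12, with values on different scales. By the sample labels, the smaller set holds myc-/- siCtrl, which was transfected, and myc-/- + MYC, which was not. Its columns are named only as control and Myc, so this rests on the description given for each sample. The larger set holds untransfected myc-/- and 3 transfected groups with MYC, labelled by their siRNA (siCtrl, siAHR-2 or siAHR-5). Both sets thus compare MYC with no MYC, but transfection changes along with MYC in each, and in opposite senses, so, if that match is right, within a set the effects of MYC and of transfection cannot be told apart. The question asked was how MYC, and then loss of Ahr in cells with MYC, altered the RNA of these genes. The labels number the libraries of a group without saying that they came from separate cultures, so p-values measure the spread between these libraries.

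In cells without a WNT signal, Axin and Apc form a scaffold that holds β-catenin beside casein kinase 1α (Csnk1a1) and glycogen synthase kinase 3β (Gsk3b). Both kinases phosphorylate β-catenin, which is then ubiquitinated and degraded. When WNT binds its receptors, Dishevelled proteins (Dvl1 to Dvl3) are recruited to the membrane, are phosphorylated by casein kinases such as Csnk1e, and draw Axin away from the scaffold, so that β-catenin accumulates and enters the nucleus. Axin2 is itself a target of β-catenin with TCF/LEF factors and acts as a negative feedback of the pathway.

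The promoters of the 9 genes were searched for the E-box bound by MYC with MAX and for the core motif of TCF/LEF factors. MYC was varied in these comparisons, and TCF/LEF factors, named above with β-catenin, were not. No motif of the aryl hydrocarbon receptor was searched. The sequences are from RefSeq on the GRCr8 build, whereas the reads were aligned to rn6, and each covers the 250 bases before the annotated start. The E-box CACGTG, which reads the same on both strands, was present in the promoters of Dvl2 and Gsk3b, against 5.59% of 33469 rat promoters. In Dvl2 it lay 240 to 235 bases before the start, and in Gsk3b 195 to 190 bases before it. The TCF/LEF motifs CTTTGAT and CTTTGAA, searched on both strands, were each present once in the promoter of Axin2, at 132 to 126 and 232 to 226 bases before the start, against 7.58% of promoters with either. The variant E-box CACGCG, present in 7.14% of promoters, was in none of the 9. The 3 promoters with a match are given 5′ to 3′ on the strand of the gene, with the motifs in capitals: Axin2 at chr10:94398535-94398784 on the plus strand, Dvl2 at chr10:55222036-55222285 on the plus strand and Gsk3b at chr11:76153250-76153499 on the minus strand.
Axin2: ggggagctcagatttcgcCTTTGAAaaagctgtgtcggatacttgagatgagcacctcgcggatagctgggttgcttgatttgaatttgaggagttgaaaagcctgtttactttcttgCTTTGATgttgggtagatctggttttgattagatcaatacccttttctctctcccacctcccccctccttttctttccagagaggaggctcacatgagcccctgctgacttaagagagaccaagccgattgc
Dvl2: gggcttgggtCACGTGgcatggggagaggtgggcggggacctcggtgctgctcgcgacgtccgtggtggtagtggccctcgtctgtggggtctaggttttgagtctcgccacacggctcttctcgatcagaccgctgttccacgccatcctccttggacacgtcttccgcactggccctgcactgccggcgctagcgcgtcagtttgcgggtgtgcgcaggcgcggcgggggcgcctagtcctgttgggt
Gsk3b: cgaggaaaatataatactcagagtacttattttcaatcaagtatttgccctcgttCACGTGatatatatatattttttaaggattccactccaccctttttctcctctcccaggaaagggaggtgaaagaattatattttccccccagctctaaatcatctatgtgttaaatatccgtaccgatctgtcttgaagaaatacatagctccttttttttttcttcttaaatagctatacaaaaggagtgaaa
A match to these letters is a description of the sequence and does not show that a factor was bound there.

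The table holds normalized expression on a log2 scale, with library medians of 11.0 to 11.1 in the smaller set and 11.6 to 11.7 in the larger set, and the read depth is unknown. Ahr, the gene targeted by the siRNAs, fell by 1.29 on the log2 scale with siAHR-2 and by 1.39 with siAHR-5. Reads on rat Myc were lower with MYC, by a log2FC of -1.26 in the smaller set and -2.68 in the larger set, and which part of Myc the deletion removes was not analysed here. Of 10 fibroblast markers, 6 to 8 lay above the median gene in each group, while Col1a2 stayed at 3.64 to 4.08. Their summed level was lower with MYC, at 19.87 to 19.96 against 20.80 to 20.82 on the log2 scale in the smaller set and 20.22 to 20.24 against 21.95 to 22.18 in the larger set. No marker of epithelial, neuronal, macrophage or endothelial cells lay above the median gene in any group. The summed level of the 4 epithelial markers was higher with MYC, at 8.63 to 8.81 against 8.18 to 8.25 on the log2 scale in the smaller set and 8.77 to 9.11 against 7.76 to 7.92 in the larger set, with Epcam at 1.24 to 2.40. The mean of Krt8, the highest of the 4 in the larger set, was 7.70 in myc-/- and 8.87 in myc-/- + MYC siCtrl, while the median of the 4 there was 3.05 and 3.04, and the part of either marker list in the results was not tested. One library stood apart. In replicate 2 of myc-/-, 231 of 9237 well expressed genes differed by over 0.5 from the mean of the other 2 replicates, against 0 to 11 in every other library, and over 8592 genes this deviation ran with the log2 length of the gene (r = -0.528). Other libraries of the larger set had the same measure between -0.356, in replicate 2 of siAHR-5, and 0.477, in replicate 1 of myc-/-, whereas the smaller set ran from -0.0699 to 0.0772, and the part of gene length in the results was not tested. Among the genes described here, Apc, Dvl3 and Gsk3b deviated most in that library, by -0.68, -0.50 and -0.38. Apc and Gsk3b span 57.6 and 150 kb, but Dvl3 spans only 17.2 kb. Axin2 and Csnk1a1, at 33.2 and 35.4 kb, deviated by 0.04 and -0.08.

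**Figure D1:**
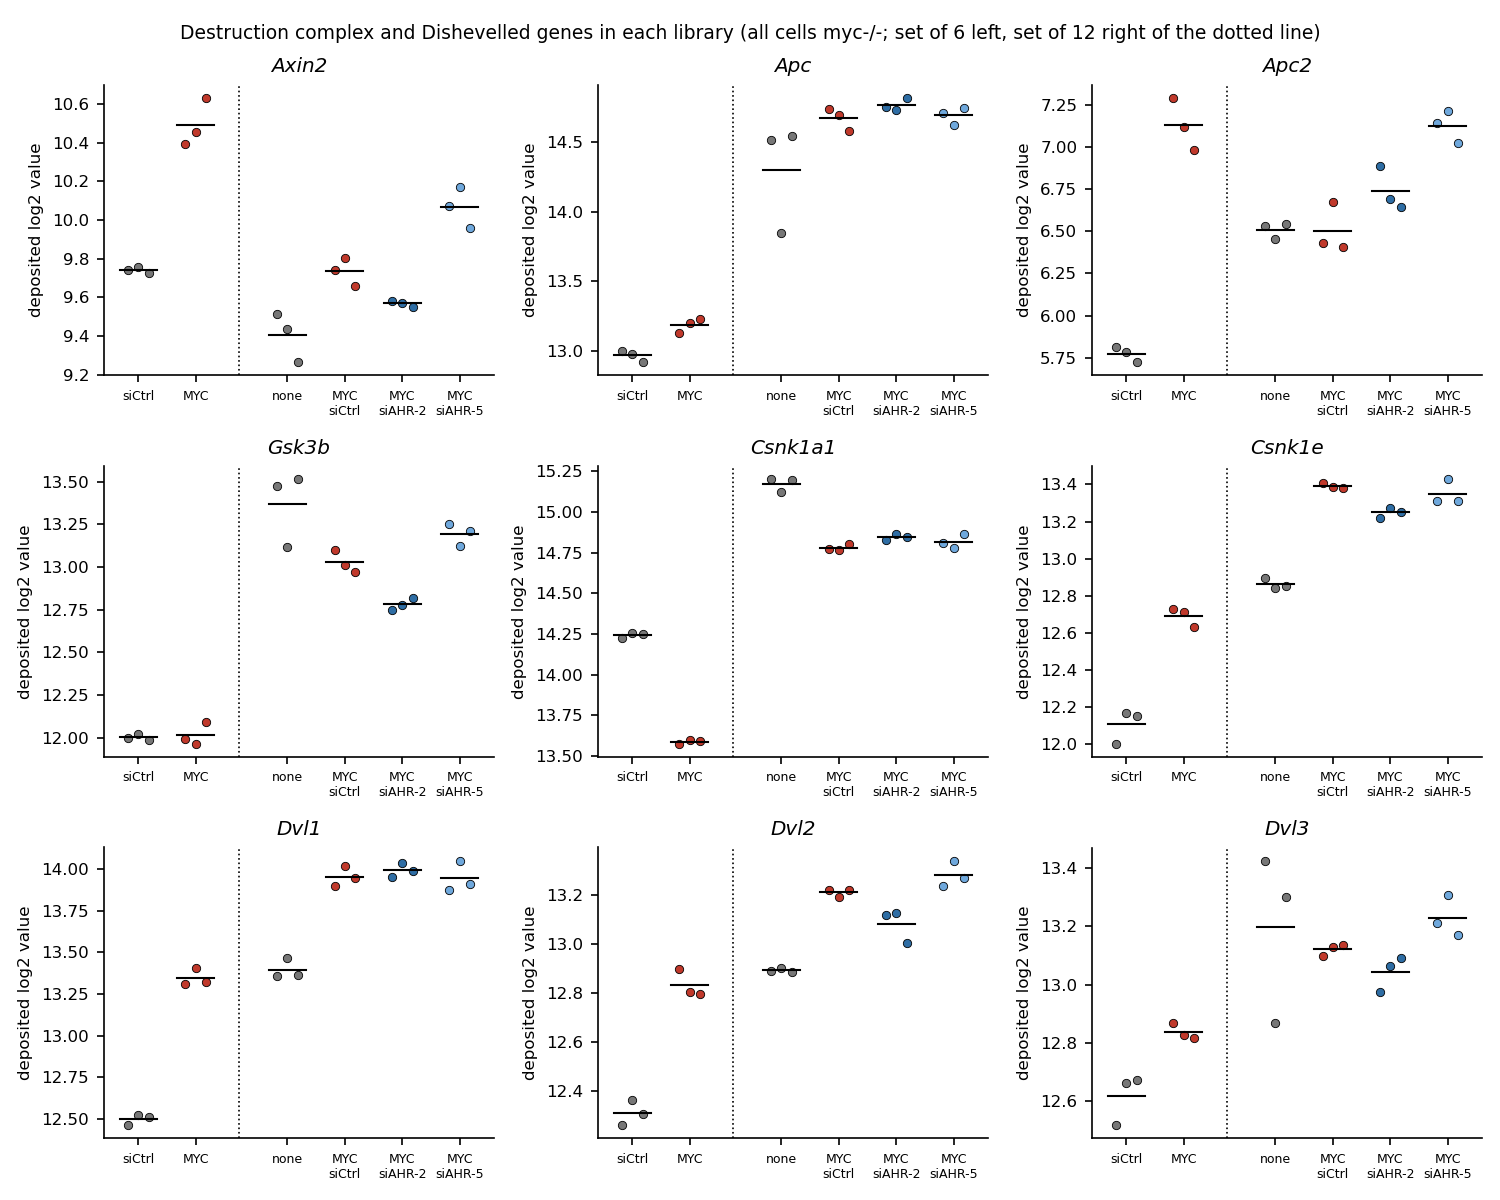
Deposited log2 value of each of the 9 genes in every library (points, in the order of replicates 1 to 3) with the group mean (line); the 6 libraries of the first set stand left of the dotted line and the 12 of the other set right of it, and each panel has its own axis. The low point of Apc, Gsk3b and Dvl3 in myc-/- is replicate 2, and Csnk1a1 is lower with MYC in both sets.

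Expression of the destruction complex and Dishevelled genes moved in both directions with MYC. With a fold of at least 1.5 and a limma adjusted p of at most 0.01, Axin2, Apc2 and Dvl1 rose and Csnk1a1 fell in the smaller set. These 4 of the 9 genes compare with 26.8% of all genes called in this comparison, 12.5% higher and 14.3% lower. In the larger set limma called 0 of the 9, against 25.5% of all genes, while 6 of the 9 had an unadjusted p under 0.05. So did 8875 of the 13188 genes in limma. At an adjusted p of at most 0.01 with no fold cutoff, 8 of the 9 passed in the smaller set, where 68.7% of all genes did, and 4 of the 9 in the larger set, where 53.8% did. With all groups in one fit these counts were 6 and 6, and in the smaller set Apc and Dvl3 no longer passed (adjusted p of 0.0840 and 0.0306 in limma, range over alternatives 7.10e-06 to 0.0840 and 6.11e-05 to 0.0306). The 4 genes of the larger set also passed in the smaller one, Dvl1, Dvl2 and Csnk1e higher and Csnk1a1 lower with MYC each time. Values of the 2 groups did not overlap for 8 of the 9 genes in the smaller set (78.8% of all genes) and 7 of the 9 in the larger set (70.5% of all genes). The median log2FC of the 9 genes was 0.52 in the smaller set and 0.32 in the larger set, and that of all genes was -0.00 in both. In bulk RNA, fewer cells that express a gene and less of its RNA per cell cannot be told apart.

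Among the scaffolds, Apc2, a paralog of Apc best known from neurons, had the largest difference in the smaller set. Its log2 values were 5.81, 5.78 and 5.72 in myc-/- siCtrl and 7.29, 7.12 and 6.98 in myc-/- + MYC. No value of the MYC group came near the controls. Apc2 rose by a log2FC of 1.36 (standard error, SE, 0.0748, 95% interval 1.19 to 1.52, adjusted p of 1.67e-08 in limma), or 2.56-fold. The values in the larger set were 6.53, 6.45 and 6.54 in myc-/- against 6.43, 6.67 and 6.41 in myc-/- + MYC siCtrl, which overlapped. The log2FC there was -0.01 (SE 0.0811, 95% interval -0.21 to 0.19, adjusted p of 0.978 in limma), and its sign changed with the scaling, to 0.19 after quantile normalization and 0.04 after centring on the median. Apc2 was therefore higher with MYC in 1 set of libraries and not detectably different in the other.

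Axin2, the feedback scaffold, was higher with MYC in both sets. In the smaller set its values were 9.74, 9.76 and 9.73 without MYC and 10.39, 10.45 and 10.63 with MYC. The groups were well separated, and Axin2 rose by a log2FC of 0.75 (SE 0.0631, adjusted p of 6.31e-07 in limma), or 1.68-fold. Values in the larger set were 9.52, 9.44 and 9.27 in myc-/- and 9.74, 9.81 and 9.66 in myc-/- + MYC siCtrl. Again no value overlapped, but the log2FC of 0.33 (SE 0.0815, adjusted p of 0.0129 in limma) was below the fold cutoff.

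Apc, the large scaffold and tumor suppressor, differed little. Its values in the smaller set were 13.00, 12.98 and 12.92 without MYC and 13.13, 13.20 and 13.23 with MYC. The difference was small but larger than the spread between libraries, with a log2FC of 0.22 (SE 0.0367, adjusted p of 2.21e-04 in limma). The larger set had Apc at 14.51, 13.85 and 14.55 in myc-/- and at 14.74, 14.70 and 14.58 in myc-/- + MYC siCtrl. The log2FC of 0.37 (SE 0.193, adjusted p of 0.145 in limma) moved with the low value of replicate 2, and without it the log2FC was 0.14 (adjusted p of 0.0635 in limma, range over alternatives 0.0246 to 0.289).

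The kinases went apart. Csnk1a1, which primes β-catenin for Gsk3b, was at 14.22, 14.26 and 14.25 without MYC and at 13.57, 13.60 and 13.59 with MYC in the smaller set. All values within a group lay within a narrow range, and Csnk1a1 fell by 0.66 on the log2 scale (SE 0.0270, adjusted p of 1.42e-09 in limma), to 0.634 of the control. Its values were 15.20, 15.12 and 15.20 in myc-/- and 14.77, 14.77 and 14.80 in myc-/- + MYC siCtrl in the larger set. The direction was the same, with a log2FC of -0.39 (SE 0.0309, adjusted p of 8.85e-05 in limma) that did not reach the fold cutoff. After quantile normalization the log2FC was -0.46 in the smaller set, also short of the fold cutoff, and -0.22 in the larger set.

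Csnk1e, a kinase of Dishevelled, was higher with MYC by nearly the same amount in both sets. Its values were 12.002, 12.16 and 12.15 against 12.73, 12.71 and 12.63 with MYC in the smaller set, and 12.90, 12.84 and 12.85 against 13.41, 13.38 and 13.38 in the larger set. The groups were separate in both. The log2FC was 0.58 in the smaller set (SE 0.0479, adjusted p of 5.19e-07 in limma), just under the fold cutoff, and 0.53 in the larger set (SE 0.0273, adjusted p of 1.54e-05 in limma). The first value passed the cutoff at 0.64 after quantile normalization, and at 0.61 without replicate 2 or replicate 3 of myc-/- siCtrl or without replicate 3 of myc-/- + MYC.

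Gsk3b, which phosphorylates β-catenin for degradation, was alike in the 2 groups of the smaller set, at 12.001, 12.02 and 11.99 without MYC and 11.995, 11.97 and 12.09 with MYC. The log2FC was 0.02, with a 95% interval of -0.07 to 0.10 and a limma adjusted p of 0.744. Its values in the larger set were 13.48, 13.12 and 13.51 in myc-/- and 13.10, 13.01 and 12.97 in myc-/- + MYC siCtrl. Replicate 2 of myc-/- was again the low one. The log2FC was -0.34 (SE 0.113, adjusted p of 0.0382 in limma), and -0.47 without that library (adjusted p of 5.00e-04 in limma, range over alternatives 5.00e-04 to 0.119).

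Of the Dishevelled genes, which relay the WNT signal from the receptors to Axin, Dvl1 had the largest log2FC with MYC in both sets. In the smaller set Dvl1 was at 12.46, 12.53 and 12.52 without MYC and at 13.31, 13.40 and 13.32 with MYC. It rose by a log2FC of 0.84 (SE 0.0357, adjusted p of 1.76e-09 in limma), or 1.795-fold. In the larger set the values were 13.36, 13.47 and 13.37 in myc-/- and 13.90, 14.02 and 13.95 in myc-/- + MYC siCtrl. No value overlapped, but the log2FC of 0.56 (SE 0.0468, adjusted p of 1.18e-04 in limma) was short of the fold cutoff. It passed at 0.64 after quantile normalization, 0.60 after median centring, and 0.59 without replicate 2 of myc-/- or without replicate 1 of myc-/- + MYC siCtrl.

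Dvl2 was at 12.26, 12.36 and 12.30 without MYC and 12.90, 12.80 and 12.79 with MYC in the smaller set, and at 12.89, 12.90 and 12.88 against 13.22, 13.19 and 13.22 in the larger set. The spread within groups was small in both sets. Its log2FC was 0.52 in the smaller set (SE 0.0401, adjusted p of 2.87e-07 in limma) and 0.32 in the larger set (SE 0.0240, adjusted p of 7.37e-05 in limma), below the fold cutoff each time, though 0.60 after quantile normalization in the smaller set. Dvl3 was at 12.52, 12.66 and 12.67 without MYC and 12.87, 12.83 and 12.82 with MYC in the smaller set. This was the smallest difference of the 3 Dishevelled genes, with a log2FC of 0.22 (SE 0.0432, adjusted p of 7.07e-04 in limma). Dvl3 was at 13.42, 12.87 and 13.30 in myc-/- and 13.10, 13.13 and 13.14 in myc-/- + MYC siCtrl in the larger set. The groups overlapped through replicate 2 of myc-/-. The log2FC was -0.08 (SE 0.142, adjusted p of 0.665 in limma), and -0.24 without that library (adjusted p of 0.00487 in limma, range over alternatives 0.00487 to 0.929).

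**Figure D2:**
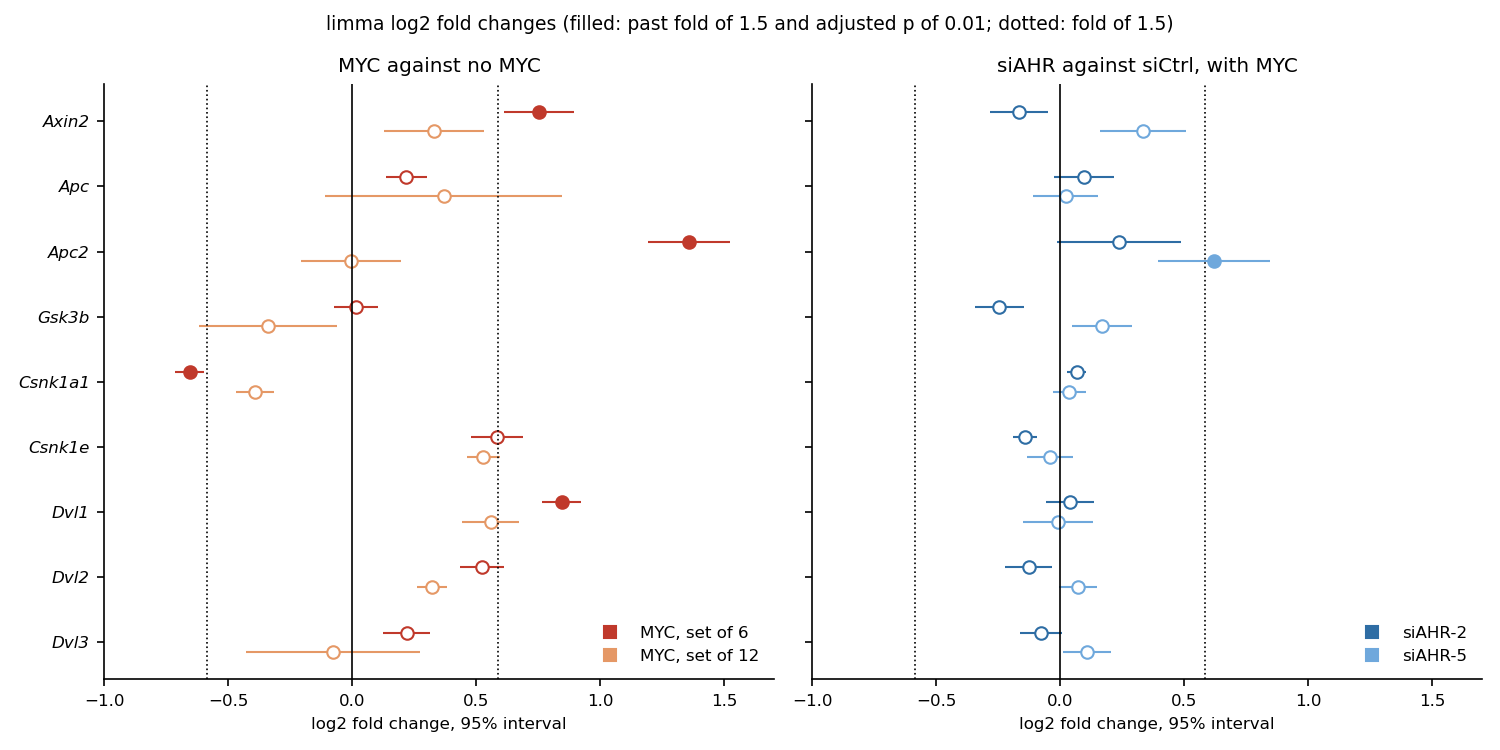
Log2 fold change of each gene with its 95% interval from limma, for MYC in the smaller set and the larger set (left) and for the siRNAs siAHR-2 and siAHR-5 against siCtrl in cells with MYC (right); filled points passed both the fold of 1.5 and the adjusted p of 0.01, and dotted lines mark that fold. Axin2, Apc2, Dvl1 and Csnk1a1 are filled in the smaller set, and Apc2 alone is filled with siAHR-5.

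The 2 MYC effects were set against each other in a limma contrast of the 4 groups, which share no library. Apc2 differed most, with an effect in the larger set lower by 1.36 on the log2 scale (difference -1.36, SE 0.115, adjusted p of 1.24e-07 in limma). It was the 1 gene of the 9 called, against 16.5% of all genes. At an adjusted p of at most 0.01 with no fold cutoff, 5 of the 9 passed, against 43.2% of all genes. Besides Apc2 these were Axin2 (difference -0.42, adjusted p of 0.00362 in limma), Dvl1 (-0.29, adjusted p of 0.00129 in limma), Dvl2 (-0.20, adjusted p of 0.00633 in limma) and Csnk1a1 (0.26, adjusted p of 2.00e-04 in limma). On leaving out 1 library the count was 3 to 7, the highest without replicate 2 of myc-/- and the lowest without replicate 1 of myc-/- or replicate 3 of either siCtrl group. After median centring it was 2, Apc2 and Csnk1a1, and over the alternatives the limma adjusted p reached 0.0131 for Axin2, 0.0130 for Dvl1 and 0.0860 for Dvl2, whose difference was -0.12 after median centring. For each of the latter 4 the effect kept its sign and was smaller in the larger set. The difference for Csnk1e was -0.06, with a 95% interval of -0.19 to 0.08. For Apc, Gsk3b and Dvl3 the differences were 0.15, -0.36 and -0.30, and without replicate 2 of myc-/- they were -0.08, -0.48 and -0.46. The sets differ in which group was transfected and in their normalization, and the part of either in these differences was not tested.

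Differences between related genes within a library do not depend on a constant shift of its log2 values. The difference Csnk1e minus Csnk1a1 was -2.22, -2.09 and -2.10 in myc-/- siCtrl and -0.85, -0.88 and -0.96 in myc-/- + MYC. In the larger set it was -2.31, -2.28 and -2.34 in myc-/- and -1.37, -1.38 and -1.42 in myc-/- + MYC siCtrl. Csnk1e was thus higher relative to Csnk1a1 with MYC in both sets, by 1.24 (SE 0.0534) and by 0.92 (SE 0.0242) on the log2 scale, with no overlap. After quantile normalization these differences were 1.11 and 0.80. An exact two-sided permutation test of 3 against 3 libraries cannot go below p = 0.10, and both differences stood at p = 0.10. These were among 20 such tests, of 5 ratios in 4 comparisons, so none could pass 0.05 or an adjustment. The groups did not overlap in 15 of the 20. Over the 4 comparisons, 43.3% to 78.8% of all single genes did not overlap. The share for ratios of other genes was not determined, and the 5 ratios share genes and libraries.

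Dvl1 minus Dvl3 was higher with MYC by 0.63 in the smaller set (SE 0.0496) and by 0.63 in the larger set (SE 0.206). In the larger set the 3 myc-/- values were -0.07, 0.60 and 0.06, the middle one from replicate 2, and without that library the difference was 0.84. Dvl1 minus Dvl2 was higher with MYC by 0.32 (SE 0.0565) and 0.24 (SE 0.0535), and Dvl2 minus Dvl3 by 0.30 (SE 0.0364) and 0.40 (SE 0.175). The groups did not overlap for these 3 ratios in either set, and the test cannot separate them further. With the siRNAs Dvl1 minus Dvl3 also did not overlap siCtrl, at differences of 0.11 with siAHR-2 and -0.12 with siAHR-5. Nor did Csnk1e minus Csnk1a1 (-0.21) and Dvl1 minus Dvl2 (0.17) with siAHR-2, or Apc2 minus Apc (0.60) with siAHR-5. The other ratios with the siRNAs overlapped siCtrl. Apc2 minus Apc was higher by 1.14 with MYC in the smaller set and lower, at -0.37, in the larger set, or -0.17 without replicate 2 of myc-/-.

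**Figure D3:**
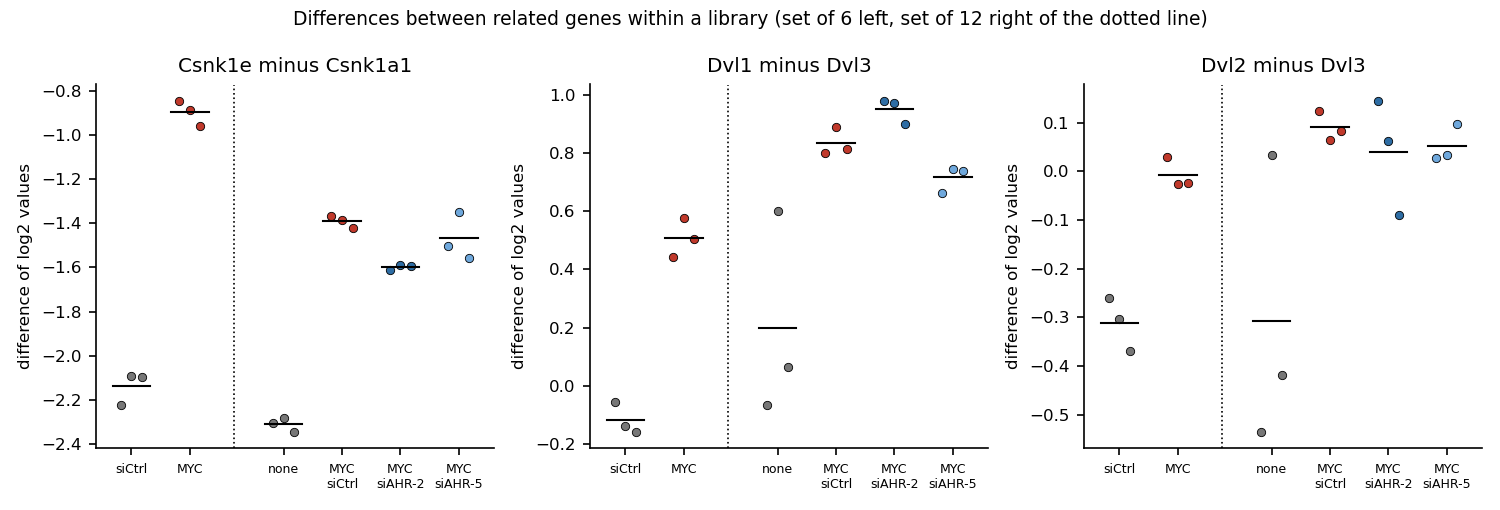
Difference of the log2 values of 2 related genes within each library (points) with the group mean (line), for Csnk1e minus Csnk1a1, Dvl1 minus Dvl3 and Dvl2 minus Dvl3; the smaller set stands left of the dotted line. Csnk1e minus Csnk1a1 lies at -2.34 to -2.09 in the libraries without MYC and at -1.61 to -0.85 in those with MYC.

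The knockdown comparisons asked what lower Ahr did in cells with MYC. Both siRNAs were compared with the same 3 siCtrl libraries, which were also the MYC group of the larger set, so the comparisons are not independent. With siAHR-2 limma called 0 of the 9 genes at the fold and p cutoffs, against 0.47% of all genes. Of the 9, 5 had an unadjusted p under 0.05. So did 5326 of the 13188 genes in limma. For siAHR-5 limma called Apc2 alone, 1 of the 9, against 2.33% of all genes. At an adjusted p of at most 0.01 with no fold cutoff, 2 of the 9 passed with siAHR-2 (14.5% of all genes) and 1 with siAHR-5 (23.4% of all genes). The groups did not overlap for 6 of the 9 genes with siAHR-2 (43.3% of all genes) and 5 of the 9 with siAHR-5 (50.5% of all genes).

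Apc2 was at 6.43, 6.67 and 6.41 with siCtrl, at 6.89, 6.69 and 6.64 with siAHR-2 and at 7.14, 7.21 and 7.02 with siAHR-5. The siAHR-5 values were above all others of the larger set. Apc2 rose by a log2FC of 0.62 with siAHR-5 (SE 0.0903, adjusted p of 0.00411 in limma), and the log2FC with siAHR-2 was 0.24 (SE 0.0998, adjusted p of 0.139 in limma). The siAHR-5 call was lost after quantile normalization (0.50), after median centring (0.56) and on leaving out any 1 of the 6 libraries other than replicate 2 of siCtrl, with log2FC between 0.57 and 0.67.

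Axin2 was at 9.58, 9.57 and 9.55 with siAHR-2 and at 10.07, 10.17 and 9.96 with siAHR-5, on either side of siCtrl at 9.74, 9.81 and 9.66. Over the 4 groups of the larger set, the order from low to high was myc-/-, siAHR-2, siCtrl and siAHR-5, and no neighbours in that order overlapped. The log2FC of Axin2 was -0.17 with siAHR-2 (SE 0.0469, adjusted p of 0.0484 in limma) and 0.33 with siAHR-5 (SE 0.0698, adjusted p of 0.0145 in limma). Gsk3b also lay below siCtrl with siAHR-2 and above it with siAHR-5, at 12.75, 12.78 and 12.82 and at 13.25, 13.12 and 13.21, against 13.10, 13.01 and 12.97 with siCtrl, while its mean was highest in myc-/-. Its log2FC was -0.25 with siAHR-2 (SE 0.0395, adjusted p of 0.00853 in limma) and 0.17 with siAHR-5 (SE 0.0487, adjusted p of 0.0419 in limma), both below the fold cutoff. With siAHR-5 the log2FC of Axin2 was 0.20 after quantile normalization and that of Gsk3b 0.11 after median centring (limma, adjusted p up to 0.0542 and 0.149 over the alternatives).

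The remaining genes differed less between the siRNAs and siCtrl. Csnk1e was at 13.22, 13.27 and 13.25 with siAHR-2, against 13.41, 13.38 and 13.38 with siCtrl, and its log2FC of -0.14 (SE 0.0192, adjusted p of 0.00502 in limma) was well below the fold cutoff. Neither Gsk3b nor Csnk1e kept an adjusted p of at most 0.01 with siAHR-2 when any 1 of the 6 libraries was left out or with all groups in one fit (limma, range over alternatives 9.84e-04 to 0.0573 and 0.00134 to 0.0352). With siAHR-5 the log2FC of Csnk1e was -0.04 (adjusted p of 0.427 in limma). Csnk1a1 had log2FC of 0.07 and 0.04 with siAHR-2 and siAHR-5, and Apc 0.10 and 0.02. The Dishevelled genes were within 0.13 of siCtrl in both comparisons, at 0.04, -0.13 and -0.08 for Dvl1, Dvl2 and Dvl3 with siAHR-2 and -0.01, 0.07 and 0.11 with siAHR-5. None of these log2FC of the Dishevelled genes had a limma adjusted p of at most 0.05.

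The 2 siRNAs, which target the same RNA, were also compared directly. Limma called 0 of the 9 at the fold and p cutoffs, against 2.18% of all genes, while 6 of the 9 had an unadjusted p under 0.05. So did 6176 of the 13188 genes in limma. Axin2 was higher with siAHR-5 than with siAHR-2 by 0.50 (SE 0.0602, adjusted p of 0.00203 in limma) and Gsk3b by 0.41 (SE 0.0398, adjusted p of 9.70e-04 in limma). These 2 of the 9 passed the adjusted p of 0.01 with no fold cutoff, a share near the 24.4% of all genes. Axin2 no longer passed without any 1 of the siAHR-2 libraries or without replicate 1 of siAHR-5 (limma, adjusted p up to 0.0122), whereas Gsk3b passed under every alternative run (up to 0.00767). The groups did not overlap for 6 of the 9 (49.5% of all genes). Both genes thus lay on opposite sides of siCtrl under siRNAs that both lowered Ahr, to 11.97 to 12.03 for siAHR-2 and 11.76 to 11.95 for siAHR-5 (difference -0.11, adjusted p of 0.211 in limma). Apc2 was higher by 0.38 (adjusted p of 0.0155 in limma), Dvl2 by 0.20 (adjusted p of 0.0183 in limma) and Dvl3 by 0.19 (adjusted p of 0.0279 in limma), and for Dvl1 the difference was -0.05, with a 95% interval of -0.18 to 0.08.

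Further genes of the pathway were taken from 5 lists, of which 48 of 62 genes were in the table. Of 8 kinases beside the members, including Gsk3a and the casein kinase 1 and 2 genes, 1 was called by limma with MYC in the smaller set and 0 in the larger set, against the 26.8% and 25.5% of all genes given above. In the larger set 5 of the 8 had an unadjusted p under 0.05 in limma, as did 8875 of the 13188 genes. The number of kinases called there was 2 after quantile normalization and 1 after median centring or without replicate 2 or 3 of myc-/-. The gene called was Csnk1g1, a membrane-bound casein kinase, with a log2FC of -0.65 in the smaller set and 0.54 in the larger set. None of 10 genes for β-catenin, Amer1 and protein phosphatase 2A and none of 12 for the ubiquitin ligases and tankyrases was called by limma in any comparison, against the shares of all genes given above for each. For MYC in the smaller set, 8 and 7 of them had an unadjusted p under 0.05. So did 10221 of the 13188 genes in limma. The log2FC of the genes in both lists with MYC ran from -0.56 to 0.39. For MYC in the smaller set, 1 ubiquitin ligase or tankyrase gene was called after median centring, without replicate 1 of myc-/- siCtrl and without replicate 1 of myc-/- + MYC. Of 12 genes whose proteins bind Dishevelled, 3 fell with MYC in the smaller set (14.3% of all genes) and 4 in the larger set (14.7% of all genes), and none was called higher (12.5% and 10.8% of all genes). Prickle1, Dact3, Klhl12, Daam1 and Dixdc1 were 0.28 to 0.56 higher in the smaller set at a limma adjusted p of at most 0.01, below the fold cutoff. Nkd1, Nkd2 and Vangl1 were lower there at the same adjusted p, with log2FC of -0.53, -0.51 and -0.39, also below the cutoff. In the larger set the log2FC of Prickle1 was -0.48 (adjusted p of 6.41e-04 in limma).

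The genes of Dishevelled-binding proteins included Prickle2, a planar polarity protein, at 9.91 to 10.4 with MYC against 11.97 to 12.06 without it in the smaller set and 8.42 to 8.61 against 9.59 to 10.0 in the larger set. It fell by 1.89 and by 1.35 on the log2 scale (limma, adjusted p of 5.34e-09 and 2.15e-04). Cxxc5, a Dishevelled-binding inhibitor of the pathway, fell by 0.79 and 0.97 (limma, adjusted p of 9.18e-10 and 6.29e-06). Dact2 fell by 1.33 in the smaller set (adjusted p of 1.48e-09 in limma), with a log2FC of -0.17 in the larger set, where all siCtrl libraries held the same low value of 4.69 and myc-/- lay at 4.69 to 4.97. In the larger set Nkd2 and Nkd1, which antagonise Dishevelled, fell by 1.23 and 0.62 (limma, adjusted p of 2.42e-05 and 7.40e-05), Nkd1 to low values of 4.65 to 4.70, and the call of Nkd1 was lost after quantile normalization, after median centring and without replicate 3 of myc-/-. Both Nkd genes were also lower with MYC in the smaller set, by the amounts given above, short of the fold cutoff. There Nkd1 was at 4.63 in all libraries with MYC, against 5.01 to 5.24 without it, so that a larger fall could hardly be measured. With siAHR-5 the 1 gene called in these lists was Dixdc1, which has the DIX domain shared by Axin and Dishevelled, and it fell by 0.60 (adjusted p of 7.59e-04 in limma). That call was lost without replicate 2 of siAHR-5 or replicate 1 of siCtrl. This 1 of the 48 genes compares with 2.33% of all genes called with siAHR-5. For siAHR-2 limma called none of the 48, against 0.47% of all genes, and 22 had an unadjusted p under 0.05. As given above, 5326 of the 13188 genes passed that unadjusted p with siAHR-2.

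Axin2 is one of several feedback targets of β-catenin, and 7 of 11 others were in the table. Lef1, a transcription factor partner of β-catenin, rose with MYC by a log2FC of 1.32 in the smaller set and 1.90 in the larger set (limma, adjusted p of 1.40e-09 and 2.28e-06). Rnf43, a ubiquitin ligase that removes WNT receptors, rose by 1.65 and 0.62 (limma, adjusted p of 1.74e-09 and 4.22e-05). Ccnd1, the G1 cyclin D1, fell by 1.52 and 0.89 (limma, adjusted p of 2.26e-10 and 1.09e-05). With Nkd1 in the larger set, limma called 3 of the 7 in the smaller set (26.8% of all genes) and 4 of the 7 in the larger set (25.5% of all genes), in both directions. Axin2 itself was called in the smaller set only. The median log2FC of these 7 was -0.03 in the smaller set and -0.00 in the larger set. The median gene was Lgr5 in the smaller set, at a mean of 2.97 with MYC and 3.00 without it. In the larger set it was Notum, at 0.89 in both groups. Both medians thus rest on genes with low values, in which a difference could hardly be measured.

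**Figure D4:**
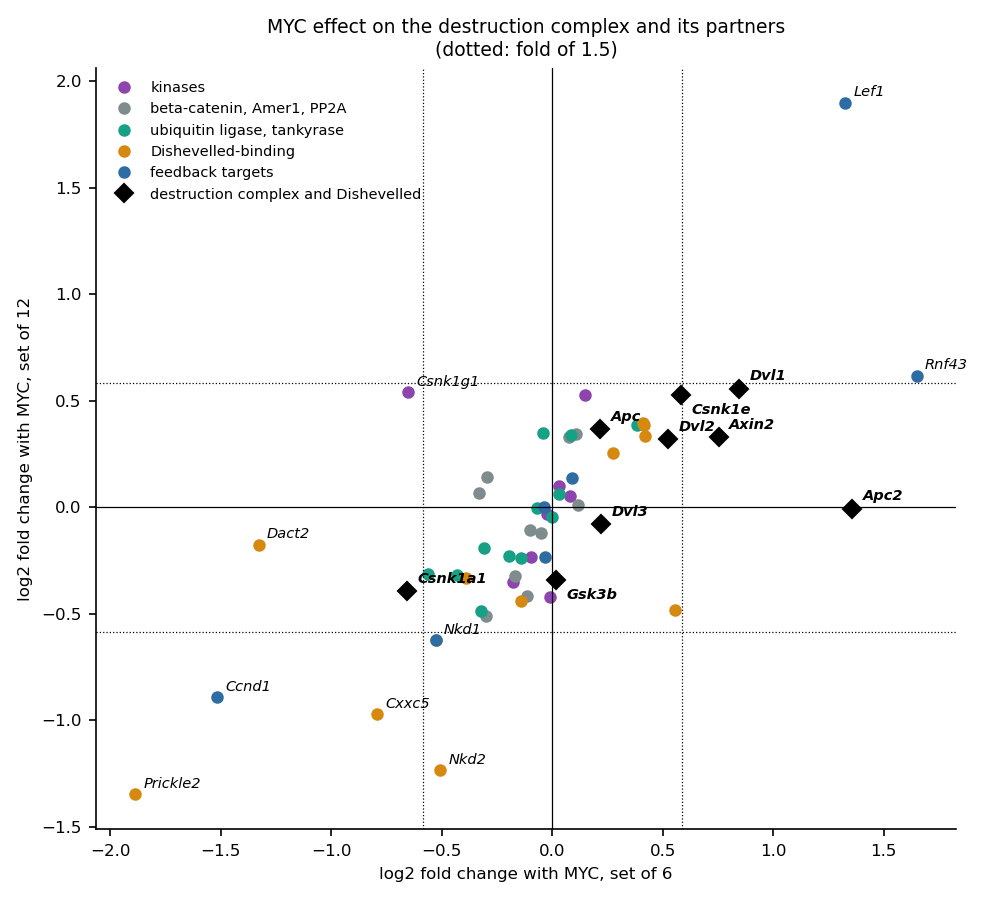
Log2 fold change with MYC in the smaller set (horizontal) against the larger set (vertical) for the 9 genes (black diamonds) and the 48 further pathway genes (circles, by list; Nkd1 is in 2 lists); dotted lines mark a fold of 1.5 and circles are named where called in either set. Lef1 lies at 1.32 and 1.90, Prickle2 at -1.89 and -1.35, and Apc2 at 1.36 and -0.01.

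For Axin2, Apc2, Csnk1a1 and Dvl1, the genes with the most similar profile over the 12 libraries of the larger set were named by Pearson's r among 9745 genes with an SD over 0.1. Csnk1a1 ran most closely with Ttc39b (r = 0.994), Hdac4 (0.994) and Ulk2 (0.992), and Dvl1 with Trmt1 (r = 0.993), Ppil1 (0.990) and Thoc6 (0.989). Axin2 was closest to Mta1 (r = 0.971), Mxra8 (0.966) and Slc2a3 (0.961), and Apc2 to Pbx2 (r = 0.961), Inppl1 (0.958) and Gpd1l (0.951). The 12 libraries fall into 4 groups and share their normalization, so these values describe likeness across groups.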

How the data were processed

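RNA-seq libraries were made from poly-A RNA with the NEBNext Ultra kit. Per the labels and the study's methods, the authors aligned reads to rn6 with HISAT2 2.1.0, dropped genes under 10 reads in total and normalized with DESeq2. The counter and annotation are not given in the sources used here. The deposited values are on a log2 scale for 13188 genes. They are called log CPM but are not CPM, and how they were transformed is not stated, so no read counts, depth or counting intervals could be given, and folds of genes with low values are the least certain. Of the 18 value columns, 0 lacked a sample.

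Groups came from the sample labels. Groups were compared only within a set, and the MYC effects of the 2 sets were also set against each other. Comparisons were fitted across all genes with limma 3.58.1 (lmFit, and eBayes with a trend) in R 4.3.3, with Benjamini-Hochberg adjustment over all 13188 genes. The calling rule was a fold of at least 1.5 and an adjusted p of at most 0.01. The analysis was tested on simulated data. Ratios of related genes were compared by exact two-sided permutation tests in scipy 1.17.1. All members were described, pathway genes were named where called, and the 3 most similar genes were named for each gene called. The members and lists were chosen with earlier results of these data known. Alternatives were a false discovery rate of 0.05 without a fold cutoff, all groups in 1 fit, no trend, quantile normalization, median centring, a minimum mean log2 value of 1, a pseudocount of 1, a replicate block and leaving out each library. Promoters, and gene lengths, came from RefSeq on GRCr8, and all 9 genes had a promoter. No genome sequence was read by coordinates.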

Additional observations from a re-analysis of the deposited data

Results flagged for a closer look

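The MYC effect differed between the larger set and the smaller set, past a fold of 1.5 and a limma adjusted p of 0.01, for Apc2 by -1.36 (larger set minus smaller set). Among the other pathway genes it differed for Csnk1g1 by 1.198, Dact2 by 1.15, Ccnd1 by 0.63, Nkd2 by -0.72, Prickle1 by -1.04 and Rnf43 by -1.03. Dact2 was at 4.69 in all siCtrl libraries of the larger set and at 4.69 to 4.97 in myc-/-, so that a lower level with MYC could hardly be measured there. Prickle1 had log2FC of 0.56 in the smaller set and -0.48 in the larger set, neither past the fold cutoff. The difference for Nkd2 was -0.51 after quantile normalization and that for Ccnd1 was 0.56 without replicate 1 of myc-/- + MYC, both short of the fold cutoff. Dixdc1 was lower with siAHR-5 than with siAHR-2 by a log2FC of -0.61, and without replicate 2 of siAHR-5 by -0.57.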

How the results depend on the processing

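Over 810 values of the 9 genes under the alternatives, 748 kept their direction and their side of the thresholds, 8 lost a call, 35 gained one and 19 changed sign, all of them without a call. With the fold cutoff kept there were 756 values, of which 720 were unaltered in this sense and 9 gained a call. With a false discovery rate of 0.05 and no fold cutoff, 8 genes passed for MYC in the smaller set, 6 in the larger set, 4 with siAHR-2, 3 with siAHR-5, 6 for the difference of the MYC effects and 5 between the siRNAs. Of all 13188 genes, 10051, 8538, 3860, 5169, 7235 and 5151 passed at this setting, in the same order. Quantile normalization and median centring each gave 1 gene for MYC in the larger set and 0 with siAHR-5. Leaving out 1 library at a time gave 4 to 5 genes for MYC in the smaller set, 0 to 1 in the larger set and 0 to 1 with siAHR-5.

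The sign of values near 0 changed as follows, and the cause was not tested. For MYC in the smaller set, Gsk3b was at -0.0274 after median centring and at -0.0227 to 0.0416 on leaving out 1 library. In the larger set, Apc2 was at 0.19 after quantile normalization, 0.0368 after centring and -0.0914 to 0.0430 on leaving out 1 library, and Dvl3 at -0.242 to 0.0363. With siAHR-5, Dvl1 was at 0.0094 after quantile normalization and -0.0635 to 0.0251 on leaving out 1 library, Apc at -0.0380 after centring and -0.0248 to 0.0551 on leaving out 1 library, and Csnk1a1 at -0.0239 after centring. For the difference of the MYC effects, Csnk1e was at 0.0297 after centring, and Apc at -0.0761 to 0.272 on leaving out 1 library.

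The mean correlation of same-numbered libraries was -0.03 and -0.01 for MYC in the smaller set and the larger set. It was 0.01 with siAHR-2, 0.10 with siAHR-5 and 0.0889 between the siRNAs. In the same order, 0, 0, 1, 2 and 2 of 3 libraries correlated best with their own number. With 3 libraries in each group, these values cannot settle whether replicate numbers mark pairs. With the replicate block the counts of the 9 genes called stayed at 4, 0, 0, 1 and 0, and at 1 for the difference of the MYC effects, but over all genes the count with siAHR-2 went from 62 to 0, and Gsk3b and Csnk1e there had limma adjusted p of 0.0458 and 0.0352. Of 180 values of the ratios, 4 moved by more than 1 SD, all after quantile normalization. These were the 2 given for Csnk1e minus Csnk1a1 with MYC, -0.25 (from -0.21) for it with siAHR-2 and 0.43 (from 0.60) for Apc2 minus Apc with siAHR-5. The unknown depth limits what can be said of genes with low values, such as Apc2, Dact2 and Nkd1.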
